A study of Homo sapiens with 8 samples.

Results

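Classical cadherins and the catenins that bind them were followed in SCC25, an established human squamous cell carcinoma line of the head and neck, after loss of the transcription factor ETS1. The 10 genes were taken by name from the count tables, which list 56638 gene symbols: the 6 cadherins CDH1, CDH2, CDH3, CDH4, CDH11 and CDH13 and the 4 catenins CTNNB1, CTNNA1, CTNND1 and JUP. RNA-Seq was performed on 8 libraries in 4 groups of 2 replicates. In the siRNA control and ETS1 siRNA groups the cells were transfected with a pool of non-targeting siRNAs or a pool of siRNAs against ETS1, to examine short-term loss, and the methods call these replicates biological. In shCON and shETS1 the cells carried a lentiviral shRNA and were selected with puromycin, to examine long-term loss. The hairpin of shCON targets no gene and that of shETS1 is hairpin 3 against ETS1, so that the shRNA effect is that of a single hairpin. The sources used here do not say whether the shRNA replicates are separate transductions, and p-values therefore measure the spread between these libraries, which may be technical.

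Cadherins are transmembrane proteins that hold neighbouring cells together through calcium-dependent contacts between their extracellular domains. Inside the cell the classical cadherins bind p120-catenin, encoded by CTNND1, and either β-catenin (CTNNB1) or plakoglobin (JUP), which in turn bind α-catenin (CTNNA1) and through it the actin cytoskeleton. Squamous epithelium is known for E-cadherin (CDH1) and P-cadherin (CDH3), while N-cadherin (CDH2) and cadherin-11 (CDH11) are known from neural and mesenchymal cells and from carcinoma cells with mesenchymal features. R-cadherin (CDH4) is a close relative of CDH2. T-cadherin (CDH13) lacks the cytoplasmic tail that binds catenins and is anchored to the membrane by a lipid.

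Promoter sequence was matched by symbol for CTNNB1, JUP, CDH2, CDH4 and CTNNA1, which are 5 of the 10 genes, and CDH1, CDH3, CDH11, CDH13 and CTNND1 are named only. The 250 bases before the first listed start of 4 genes are shown because ETS1 is a DNA-binding factor whose family recognises a GGAA core. They come from RefSeq (GRCh38.p14) and are written in the direction of transcription, at chr3:41199255-41199504 on the plus strand for CTNNB1, chr17:41786712-41786961 on the minus strand for JUP, chr18:28177131-28177380 on the minus strand for CDH2 and chr20:61499171-61499420 on the plus strand for CDH4. Capitals mark GGAA on either strand and the E-box CACCTG on either strand, the sequence that the SNAI and ZEB repressors recognise.
CTNNB1: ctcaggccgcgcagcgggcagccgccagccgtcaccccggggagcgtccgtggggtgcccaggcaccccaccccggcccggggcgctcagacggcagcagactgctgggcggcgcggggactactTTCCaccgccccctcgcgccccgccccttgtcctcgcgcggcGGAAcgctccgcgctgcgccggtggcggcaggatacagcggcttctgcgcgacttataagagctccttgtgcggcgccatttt
JUP: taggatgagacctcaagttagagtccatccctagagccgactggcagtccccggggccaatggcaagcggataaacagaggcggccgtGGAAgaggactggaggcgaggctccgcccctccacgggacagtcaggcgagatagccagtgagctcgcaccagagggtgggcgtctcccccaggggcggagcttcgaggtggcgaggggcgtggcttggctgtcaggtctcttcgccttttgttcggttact
CDH2: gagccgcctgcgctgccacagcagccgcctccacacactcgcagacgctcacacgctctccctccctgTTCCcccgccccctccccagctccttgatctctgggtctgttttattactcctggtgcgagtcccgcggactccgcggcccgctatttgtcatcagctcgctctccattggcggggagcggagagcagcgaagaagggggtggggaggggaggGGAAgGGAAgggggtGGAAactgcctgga
CDH4: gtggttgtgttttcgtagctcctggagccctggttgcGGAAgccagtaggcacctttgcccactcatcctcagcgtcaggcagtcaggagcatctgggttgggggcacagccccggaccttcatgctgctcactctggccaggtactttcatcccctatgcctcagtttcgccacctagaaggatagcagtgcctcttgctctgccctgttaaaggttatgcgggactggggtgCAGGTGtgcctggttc
The core GGAA was found 2 times in the CTNNB1 window, once in the JUP window, 4 times in the CDH2 window, once in the CDH4 window and 6 times in the CTNNA1 window, which is not printed. Of 35116 promoter windows of this length 92.7% held GGAA, with a median of 3 matches, so that the core alone is common. The longer form CGGAAG, which contains the core, was found in 16.5% of windows and among the 5 genes in CDH4 alone. CACCTG was found in 17.5% of windows and among the 5 genes again in CDH4 alone. For CDH4 2 starts are listed, and both matches hold for the window at the first listed one only. That window was not placed against the gene start given below, which is on another genome build, and may not be the main promoter. These are matches of letters in a window and were not tested for binding.

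Library totals ranged from 15954616 to 25953213 counts, and within each group the replicates differed beyond sampling noise. ETS1, the targeted gene, fell by 4.13 on the log2 scale after siRNA (SE 0.19, adjusted p = 0.000173) and by 2.89 after shRNA (SE 0.10, adjusted p = 3.82e-13; quasi-likelihood test of edgeR, adjusted over all genes by Benjamini-Hochberg). All 8 keratinocyte markers examined were above 1 CPM (CPM is the count scaled to the library total) in every library, and leukocyte markers summed to at most 4.10 CPM. The fibroblast list summed to 41.5 to 49.7 CPM over the siRNA libraries. It summed to 247 to 275 CPM in shCON and 1960 to 2070 CPM in shETS1, a difference made mostly by DCN and LUM. Levels are scaled within each kind of knockdown and are not comparable between the siRNA and shRNA libraries. Of the 6 fibroblast genes 4 were above 1 CPM in the shRNA libraries, with THY1 and PDGFRB below. Of the endothelial list, PECAM1 was at 0 in every library and CDH5 at 0 in the shRNA libraries, while KDR carried a summed level of 2.08 to 2.11 CPM in shCON and 24.7 to 24.8 CPM in shETS1. Structural RNAs such as RN7SK took 5.61% to 6.63% of counts in shCON, 9.64% to 12.3% in shETS1 and at most 0.00339% in the siRNA libraries. With the structural and mitochondrial RNAs left out of the counts, 7 of the cadherins and catenins were called after shRNA, beside 9974 of all 16459 genes tested. This removes those RNAs from the scaling only and cannot show how else the shCON and shETS1 libraries differ. The marker levels moved with shETS1 too, and their part in the shRNA results was not tested.

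The short-term comparison left 9 of the 10 genes without a call and gave a higher level of CTNNB1. A gene was called at an adjusted p under 0.1, and over all 14742 genes tested 3.41% were called, 1.13% higher and 2.27% lower. Before adjustment 2 of the 10 were under 0.05, beside 2721 of the 14742 genes tested. The median change of the 10 on the log2 scale was 0.02, beside 0.002 over all genes tested. After shRNA 7 of the 10 changed, 1 higher and 6 lower, with CDH11 falling most. Over all 16481 genes tested 60.6% were called after shRNA, 29.7% higher and 30.9% lower, so that the share of called genes among the 10 was near the background, and the median of the 10 was -0.38 beside 0.0007 over all genes. CDH4 passed the filter on low counts through shCON alone, the group where it was higher, so that it had to differ. It is counted in the 7 and in the median after shRNA but is not read as support.

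**Figure D1:**
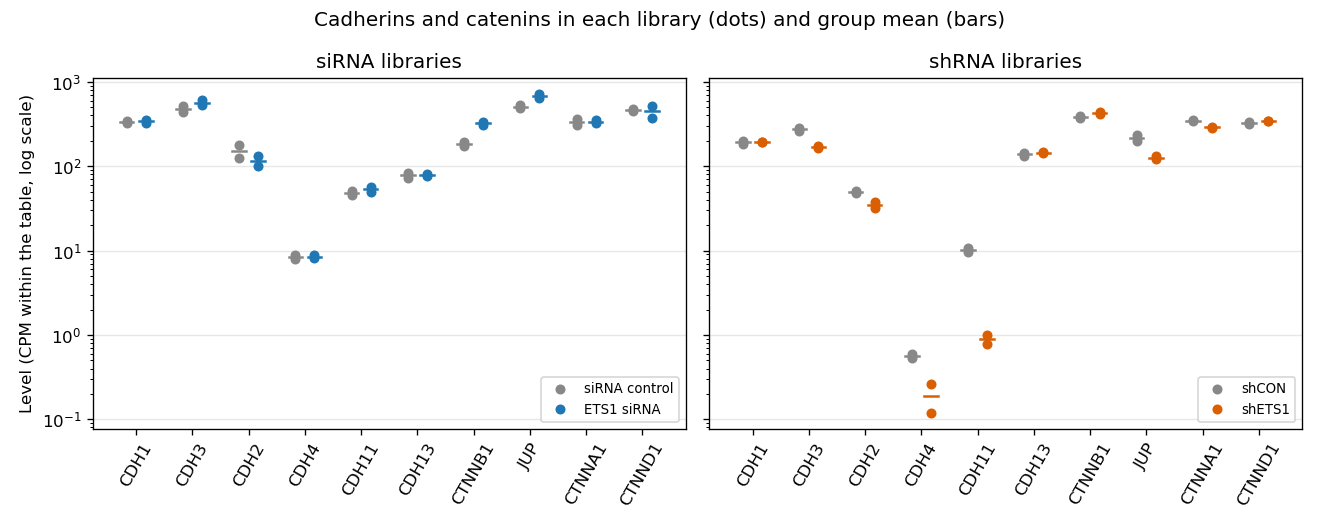
Levels of the 6 cadherins and 4 catenins as CPM, counts scaled to library size (log axis), in the siRNA libraries (left) and the shRNA libraries (right); dots are libraries, 2 a group, and horizontal bars are group means. CTNNB1 separates the siRNA groups most, from 173 and 196 to 312 and 337 CPM, while CDH11 separates the shRNA groups most. CDH4 also lies apart in the shRNA libraries, but it passed the filter on low counts through shCON alone and had to differ. Levels are scaled within each panel and are not comparable across panels.

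**Figure D2:**
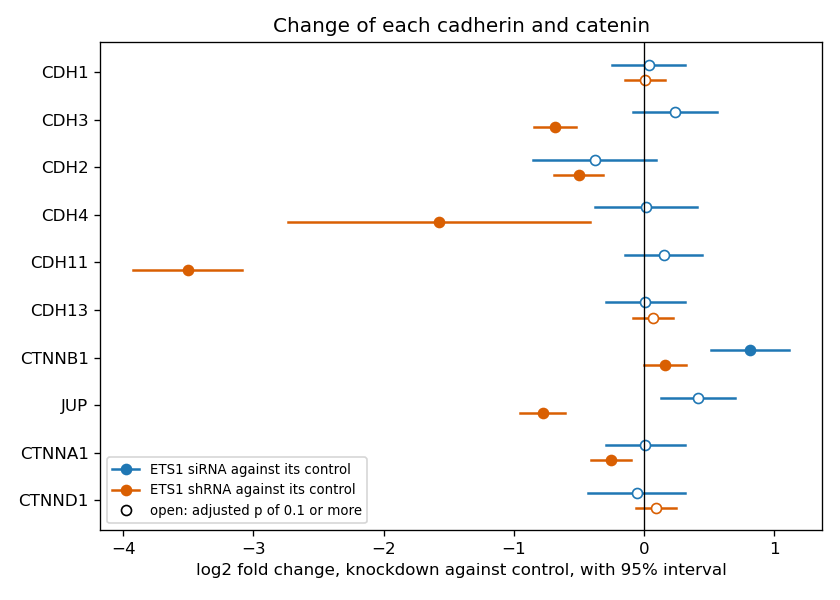
Log2 fold change of each gene in knockdown against control with its 95% interval, after siRNA (blue) and after shRNA (orange); filled symbols had an adjusted p under 0.1 in edgeR. CDH1 lies at 0.03 and 0.01, CDH11 at 0.15 after siRNA and -3.51 after shRNA, and JUP at 0.42 after siRNA and -0.78 after shRNA.

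E-cadherin, the main epithelial cadherin, did not pass the test in either knockdown. CDH1 (ENSG00000039068) is a plus-strand gene of chromosome 16, spanning 68771195 to 68869440 (GRCh37). Its level was 343 and 323 CPM in the siRNA control replicates and 353 and 329 CPM in the ETS1 siRNA replicates. It was 199.8 and 183 CPM in the shCON replicates and 192 and 193 CPM in the shETS1 replicates. The groups overlapped in both tables. The log2 fold change was 0.03 after siRNA (95% interval -0.25 to 0.31, adjusted p = 0.913 in edgeR) and 0.01 after shRNA (95% interval -0.15 to 0.16, adjusted p = 0.933).

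P-cadherin, the cadherin of the basal layer, fell after shRNA. CDH3 (ENSG00000062038) lies on the same strand of chromosome 16, from 68670092 to 68761371, and ends 9.82 kb before CDH1 starts. Its level was 285 and 263 CPM in shCON and 175 and 165 CPM in shETS1, and both shETS1 libraries lay below both shCON libraries. The fall was 0.69 on the log2 scale, or 1.61-fold (SE 0.08, adjusted p = 6.71e-07 in edgeR), and its interval of -0.85 to -0.53 lay apart from that of the neighbouring CDH1. After siRNA the level was 441 and 524 CPM in the control and 612 and 526 CPM in the knockdown, just apart, and the value of 0.24 was not past the threshold (SE 0.14, adjusted p = 0.406). Over the stretch of chromosome 16 from 64977656 to 83834245 that holds CDH11, CDH3, CDH1 and CDH13, 41 genes were higher and 49 lower of 134 tested after shRNA, with a median log2 fold change of -0.05. This is 67.2% of those tested, near the 60.6% over all genes.

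N-cadherin, a cadherin of neural and mesenchymal cells, fell after shRNA. CDH2 (ENSG00000170558) is a minus-strand gene of chromosome 18, spanning 25512843 to 25757910. Its level was 50.9 and 48.3 CPM in shCON and 32.3 and 37.6 CPM in shETS1, with no overlap. This is a fall of 0.50 on the log2 scale, or 1.42-fold (SE 0.09, adjusted p = 0.000125 in edgeR). The siRNA control replicates themselves differed, at 180.1 and 124 CPM, and the ETS1 siRNA replicates were at 101 and 133 CPM, so that the groups overlapped and the value of -0.38 (SE 0.21, adjusted p = 0.363) was not past the threshold. It moved to -0.088 when the first siRNA control library was left out and to -0.62 when the second was, and CDH2 was called lower (adjusted p = 0.0312) in a replicate block with crossed numbers, an alternative chosen after seeing the data. The difference between the effects was -0.14 (95% interval -0.70 to 0.42), an interval that holds 0.

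Cadherin-11 showed the largest change of the 10 genes, after shRNA. CDH11 (ENSG00000140937) is a minus-strand gene of chromosome 16, spanning 64977656 to 65160015. Its counts were 269 and 251 in shCON and 18 and 25 in shETS1, which is 10.7 and 9.67 CPM against 0.784 and 0.991 CPM. The fall was 3.51 on the log2 scale, or 11.4-fold (SE 0.20, adjusted p = 1.7e-10 in edgeR), and alternatives gave -3.69 to -3.36. Among the siRNA libraries CDH11 was at 50.9 and 45.5 CPM in the control and 49.7 and 57.3 CPM in ETS1 siRNA, a value of 0.15 (95% interval -0.14 to 0.45, adjusted p = 0.57). Fibroblasts express CDH11. The summed fibroblast list was higher in shETS1, mostly through DCN and LUM, and its relation to the level of CDH11 was not tested. In bulk RNA, fewer cells with a transcript cannot be told apart from less of it in each cell.

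R-cadherin was close to the detection limit in the shRNA libraries. CDH4 (ENSG00000179242), a long gene on the plus strand of chromosome 20 from 59827317 to 60515673, had 15 and 14 counts in shCON and 6 and 3 counts in shETS1, and both shETS1 libraries were below the level that the filter asks for. The fall was 1.58 on the log2 scale (SE 0.55, adjusted p = 0.0219 in edgeR). From the summed counts, 29 and 9, the ratio of shETS1 to shCON was 0.329 with an exact 95% interval of 0.137 to 0.714, which covers counting error only. The call was lost without shCON replicate 1 (adjusted p = 0.129), without shETS1 replicate 2 (adjusted p = 0.266) and with DESeq2 (adjusted p = 0.166). After siRNA CDH4 had 174 and 129 counts in the control and 153 and 164 in the knockdown, a value of 0.01 (95% interval -0.38 to 0.40, adjusted p = 0.982).

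T-cadherin did not pass the test in either knockdown. CDH13 (ENSG00000140945) spans 1173.7 kb of the plus strand of chromosome 16, from 82660570 to 83834245. Its level was 84.1 and 72.1 CPM in siRNA control and 77.04 and 80.2 CPM in ETS1 siRNA, and 143 and 134 CPM in shCON against 143 and 147 CPM in shETS1, where the groups touched without overlap. The log2 fold changes were 0.01 after siRNA (95% interval -0.29 to 0.31) and 0.07 after shRNA (95% interval -0.08 to 0.22), with adjusted p of 0.982 and 0.448 in edgeR.

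β-catenin, the catenin that also carries the Wnt signal to the nucleus, was the gene called higher in both comparisons. CTNNB1 (ENSG00000168036) is a plus-strand gene of chromosome 3, spanning 41236232 to 41301587. Its counts were 3435 and 3147 in siRNA control and 5364 and 6833 in ETS1 siRNA, which is 173 and 196 CPM against 312 and 337 CPM. Both ETS1 siRNA libraries lay above both controls, a rise of 0.81 on the log2 scale or 1.76-fold (SE 0.13, adjusted p = 0.0313 in edgeR). Without siRNA control replicate 1 the value was 0.72 and the call was lost (adjusted p = 0.349), and it was also lost with the replicate block (0.81, adjusted p = 0.114). Over all alternatives the value ranged from 0.72 to 0.91. After shRNA the level was 372 and 394 CPM in shCON and 439 and 419 CPM in shETS1, a rise of 0.16 or 1.12-fold (SE 0.08, adjusted p = 0.0837). That smaller call passed in 7 of 15 alternatives and was lost without shCON replicate 1 (adjusted p = 0.443), shCON replicate 2 (adjusted p = 0.133) or shETS1 replicate 1 (adjusted p = 0.243), with no filter on low counts (adjusted p = 0.155), with the replicate block (adjusted p = 0.194), with all 8 libraries in one fit (adjusted p = 0.263), and with scaling by library size only, where the value was 0.04 (adjusted p = 0.662) and the median of all genes was -0.12.

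Plakoglobin, which sits in adherens junctions and desmosomes and can take the place of β-catenin on the cadherin tail, fell after shRNA. JUP (ENSG00000173801) is a minus-strand gene of chromosome 17, spanning 39910856 to 39943183. Its level was 232 and 201 CPM in shCON and 122 and 131 CPM in shETS1, so that both knockdown libraries were below both controls. The fall was 0.78 on the log2 scale, or 1.72-fold (SE 0.08, adjusted p = 3.35e-07 in edgeR). In the siRNA table JUP was at 485 and 535 CPM in the control and at 712 and 649 CPM in ETS1 siRNA. These groups did not overlap either, with the knockdown above the control, and the value of 0.42 (SE 0.12, unadjusted p = 0.00933) missed the threshold at an adjusted p of 0.145, with adjusted p from 0.0167 to 0.861 over the alternatives.

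α-catenin, the link to actin, fell slightly after shRNA, and p120-catenin, which stabilises cadherins at the membrane, did not pass the test. CTNNA1 (ENSG00000044115), on the plus strand of chromosome 5 from 137946656 to 138270723, was at 341 and 351 CPM in shCON and at 293 and 287 CPM in shETS1. The fall of 0.25, or 1.19-fold (SE 0.07, adjusted p = 0.00731 in edgeR), kept its call in all 15 alternatives. After siRNA CTNNA1 was at 362 and 310 CPM in the control and 326 and 349 CPM in the knockdown, a value of 0.01 (95% interval -0.29 to 0.31, adjusted p = 0.982). CTNND1 (ENSG00000198561), on the plus strand of chromosome 11 from 57520715 to 57587018, was at 330 and 317 CPM in shCON and at 341 and 348 CPM in shETS1, a value of 0.09 (95% interval -0.07 to 0.25, adjusted p = 0.315). Across the siRNA libraries it was at 455 and 481 CPM in the control and at 522 and 377 CPM in the knockdown, the widest replicate gap of any catenin, with a value of -0.06 (95% interval -0.43 to 0.32, adjusted p = 0.883).

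Some of these genes share exon bases with other annotated genes, and the use of strand in counting is not stated. CTNND1 shares 39.1% and 12.7% of its exon bases with a pair of protein-coding genes on its strand that the tables do not list, and the listed read-through gene TMX2-CTNND1 had 0 counts in every library. CDH13 shares 21.4% of its exon bases with the antisense CDH13-AS2 and CDH3 shares 8.40% with CDH3-AS1, neither of which the tables list. LRRTM2, on the strand opposite CTNNA1, had 3 to 30 counts per library against at least 4966 for CTNNA1.

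The effects of the knockdowns were then compared by subtracting the siRNA effect from the shRNA effect in a joint fit of the 8 libraries. Over all 17190 genes tested 34.8% were called, 15.1% higher and 19.7% lower, and of the 10 genes 5 were called, all lower. CDH11 differed by -3.68 (SE 0.22, adjusted p = 7.41e-06 in edgeR), CDH4 by -1.60 (SE 0.45, adjusted p = 0.0227), JUP by -1.22 (SE 0.15, adjusted p = 0.000325), CDH3 by -0.94 (SE 0.16, adjusted p = 0.00187) and CTNNB1 by -0.67 (SE 0.14, adjusted p = 0.00473). JUP and CDH3 had a positive value after siRNA and a negative one after shRNA. For CTNNB1 both values were positive and that after siRNA was the larger. The difference was not past the threshold for CTNNA1 (-0.28, adjusted p = 0.163), CDH2 (-0.14, adjusted p = 0.734), CDH1 (-0.05, adjusted p = 0.846), CDH13 (0.04, adjusted p = 0.889) and CTNND1 (0.13, adjusted p = 0.669). Without shETS1 replicate 2 the CDH4 difference lost its call (adjusted p = 0.171), and with at least 1 TPM required neither CDH4 nor CDH11 was tested. The kind of knockdown, its duration and the preparation of the libraries cannot be told apart in this difference.

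Levels of different genes were compared as CPM per kilobase of exon. In siRNA control the order was JUP at 98.1 to 108 CPM per kilobase, CDH3 at 69.0 to 82.0, CDH1 at 53.2 to 56.5, CTNNA1 at 35.1 to 41.0, CTNND1 at 29.9 to 31.6, then CDH2 and CTNNB1, whose ranges overlapped, CDH13 at 6.54 to 7.63, CDH11 at 3.43 to 3.84 and CDH4 at 1.07 to 1.17. In ETS1 siRNA the ranges of CTNND1 and CTNNB1 overlapped and CDH2 came after them. In shCON JUP overlapped with CDH3 at the head of the order and CTNNB1 with CDH1, and in shETS1 the order was led by CTNNB1 at 35.6 to 37.3 CPM per kilobase, then CTNNA1 and CDH1, with CDH3 and JUP overlapping in the next places. CDH11 and CDH4 came last in every group. With the length of the canonical transcript in place of all exons, CTNNB1 led the order in shCON as well, at 102 to 108 CPM per kilobase, so that places of catenins depend on the length used.

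Shares of the summed cadherin level and of the summed catenin level do not depend on library scaling, but they depend on the gene lengths. CDH1 and CDH3 together made most of the cadherin level in every library. CDH1 took 33.8% and 33.5% in shCON and 41.7% and 42.1% in shETS1, while CDH3 took 45.9% and 45.8% in shCON and 36.1% and 34.3% in shETS1. CDH13 took 13.3% and 13.5% in shCON and 17.1% and 17.7% in shETS1, and CDH11 went from 0.829% and 0.812% to 0.0778% and 0.0992%. Among the catenins JUP took 33.8% and 30.2% in shCON and 21.0% and 22.5% in shETS1, and CTNNB1 took 22.8% and 24.9% against 31.7% and 30.3%. For the siRNA groups CTNNB1 took 8.01% and 8.71% in the control and 11% and 12.8% in ETS1 siRNA, and JUP took 53.4% and 56.5% against 59.6% and 58.6%. With the canonical transcript length JUP took 21.5% and 18.7% in shCON, 12.2% and 13.3% in shETS1 and 39.5% and 42.3% in siRNA control, and CTNNB1 took 33.0% and 35.2% in shCON and 13.5% and 14.9% in siRNA control. On that length CDH1 and CDH3 were close in shETS1, at ratios of 1.01 and 1.08.

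**Figure D3:**
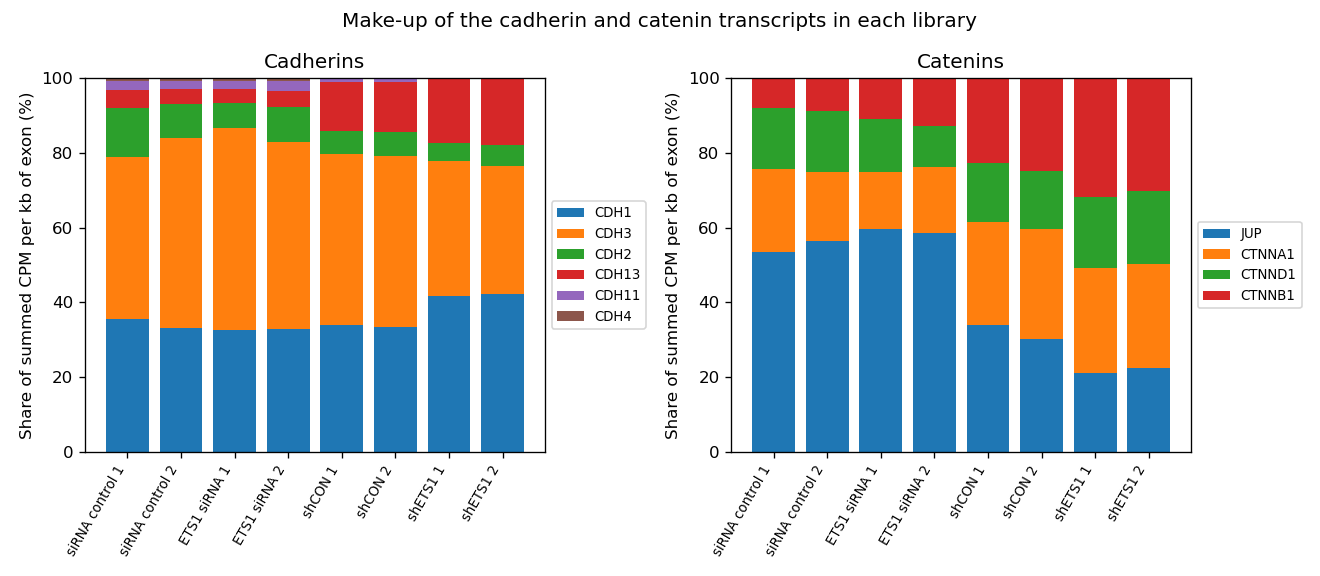
Share of each cadherin (left) and catenin (right) in the summed CPM per kilobase of exon of its family, one bar a library. In shETS1 the CDH1 band is wider than the CDH3 band, at 41.7% and 42.1% against 36.1% and 34.3%, and the CTNNB1 band exceeds the JUP band.

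Balances between pairs of genes within a library were examined because the exchange of E-cadherin for N-cadherin is a known mark of epithelial to mesenchymal transition. CDH1 exceeded CDH2 5.55-fold and 5.34-fold in shCON and 8.40-fold and 7.23-fold in shETS1, a shift of 0.52 on the log2 scale. With the canonical transcript length these ratios were 3.28 and 3.16 in shCON and 4.96 and 4.27 in shETS1. In the siRNA table the ratio was 2.69 and 3.67 in the control and 4.94 and 3.50 in ETS1 siRNA, which overlapped, with a mean shift of 0.40 that ranged from 0.15 to 0.65 on leaving out each library in turn. CDH1 was below CDH3 in shCON, at ratios of 0.738 and 0.732, and above it in shETS1, at 1.15 and 1.23, a shift of 0.70. After siRNA that balance stood at 0.818 and 0.648 in the control and 0.606 and 0.658 in the knockdown. JUP exceeded CTNNB1 in shCON, at ratios of 1.49 and 1.21, and was below it in shETS1, at 0.661 and 0.741, a shift of -0.94. With the canonical transcript length JUP was below CTNNB1 in shCON too, at 0.652 and 0.532, while the shift was the same because lengths cancel in it. In the siRNA table JUP to CTNNB1 went from 6.66 and 6.49 to 5.43 and 4.59, a shift of -0.40. With 2 libraries against 2 the smallest two-sided exact permutation p is 0.333, and no test was made of the balances.

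Other genes of cell adhesion were read from lists of 4 kinds. Of the adherens junction partners, proteins that bind catenins or nectins or tie them to actin, 17 of 20 were tested in each comparison. After siRNA 0 were called with edgeR, and 3 were under 0.05 before adjustment, beside 2721 of all 14742 genes tested. With DESeq2 1 was called, beside 797 over all genes, and the list median in edgeR was -0.04. After shRNA 13 were called, 5 higher and 8 lower, with a median of -0.28. This is 76.5% of those tested, beside 60.6% over all genes. The nectin gene PVRL1 (NECTIN1) fell by 1.93 on the log2 scale (adjusted p = 1.27e-09 in edgeR) and the α-catenin relative CTNNAL1 by 1.03 (adjusted p = 3.03e-09). AJUBA, a LIM protein that binds α-catenin, rose by 0.76 (adjusted p = 1.75e-07) and PVRL4 (NECTIN4) by 1.14 (adjusted p = 6.2e-07).

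Desmosome genes, whose products share JUP with the adherens junction, were more often called higher than lower after shRNA, where JUP fell. Of 12 on the list 11 were tested and 10 called, 8 higher and 2 lower, with a median of 0.55. The called share was 90.9%, beside 60.6% over all genes, of which 29.7% were higher and 30.9% lower. DSG2 and PKP3 were the 2 that fell, by 0.47 and 0.24. The desmogleins DSG1 and DSG3, adhesive cadherins of the desmosome, rose by 2.96 (adjusted p = 2.31e-12 in edgeR) and 1.43 (adjusted p = 3.85e-10). The p53 and p63 target PERP rose by 1.33 (adjusted p = 1.17e-09) and the desmocollin DSC2 by 0.69 (adjusted p = 6.86e-07). DSG1 had 114 and 99 counts in shCON and 747 and 821 in shETS1, and 4 or 5 in each siRNA library. After siRNA 9 were tested and the plakophilin PKP3 alone was called, higher by 0.57 (adjusted p = 0.0964 in edgeR). The list median was 0.19, and 3.41% of all genes were called. The list had 0 calls at an adjusted p under 0.05 and with the replicate block, where 190 and 97 genes were called in all. With no filter on low counts it had 4, while the calls over all genes rose from 502 to 1466. The call of PKP3 was also lost on leaving out either siRNA control library. PERP is also on the keratinocyte list, whose summed level was 15700 to 15900 CPM in shCON and 26200 to 26600 CPM in shETS1, and 16100 to 20900 CPM in siRNA control against 24300 to 27800 CPM in ETS1 siRNA. Its 8 genes did not move together after shRNA: KRT5, KRT14, KRT6A, KRT17 and PERP rose, while TP63 fell by 0.40 (adjusted p = 0.00127 in edgeR), EPCAM by 0.60 (adjusted p = 4.45e-06) and SFN by 0.17 (adjusted p = 0.0693). After siRNA no gene of the keratinocyte list was called, with adjusted p of 0.104 or more in edgeR. TP63 at -0.10 and EPCAM at -0.53 had negative values there and the others positive ones. The part of that list in the desmosome result was not tested.

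Among other cadherins, 9 of 16 were tested after shRNA. Of these CDH10, CDH12 and CDH19 passed the filter on low counts through shETS1 alone and CDH6 through shCON alone. Genes admitted in this way had to differ, so that under this filter no count or median is read from the list. With at least 10 counts in every library 2 were called, beside 9408 of all 14845 genes tested in that setting. CDH16, a cadherin known from kidney, had 210 and 243 counts in shCON and 1505 and 1558 in shETS1, a rise of 2.84 (adjusted p = 3.19e-13 in edgeR). CDH18, a neural cadherin, had 19 and 24 counts against 166 and 151, a rise of 2.96 (adjusted p = 6.79e-09). CDH10 had 0 and 1 counts in shCON and 31 and 50 in shETS1, and CDH12 had 3 and 3 counts against 39 and 53. Their calls are not read as support. With at least 1 TPM required in each group 1 of the list was called, beside 7568 of all 10801 genes tested in that setting. After siRNA 4 were tested and 0 called by edgeR or DESeq2, beside 502 and 797 of all 14742 genes tested. CDH16, the 1 gene at an unadjusted p under 0.05 in edgeR, passed the filter through ETS1 siRNA alone. It had to differ there too and is not read as support.

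Of the 6 transcription factors that repress CDH1, all were tested. After siRNA 0 were called with edgeR, and 1 had an unadjusted p under 0.05, beside 2721 of all 14742 genes tested. With DESeq2 1 was called, beside 797 over all genes, and the median in edgeR was 0.08. After shRNA 3 were higher and 1 lower, with a median of 0.61, and the called share of 66.7% was near the 60.6% over all genes. TWIST1 rose by 1.00 (adjusted p = 7.52e-08 in edgeR), ZEB2 by 0.61 (adjusted p = 0.00286) and ZEB1 by 0.62 (adjusted p = 0.0138), while SNAI2 fell by 0.47 (adjusted p = 3.96e-05). The level of SNAI2 was 190.0 and 184 CPM in shCON and 128 and 142 CPM in shETS1, above those of the 3 that rose, which lay between 2.23 and 39.3 CPM over the shRNA libraries. CDH1 itself was at a log2 fold change of 0.01 in the same libraries.

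**Figure D4:**
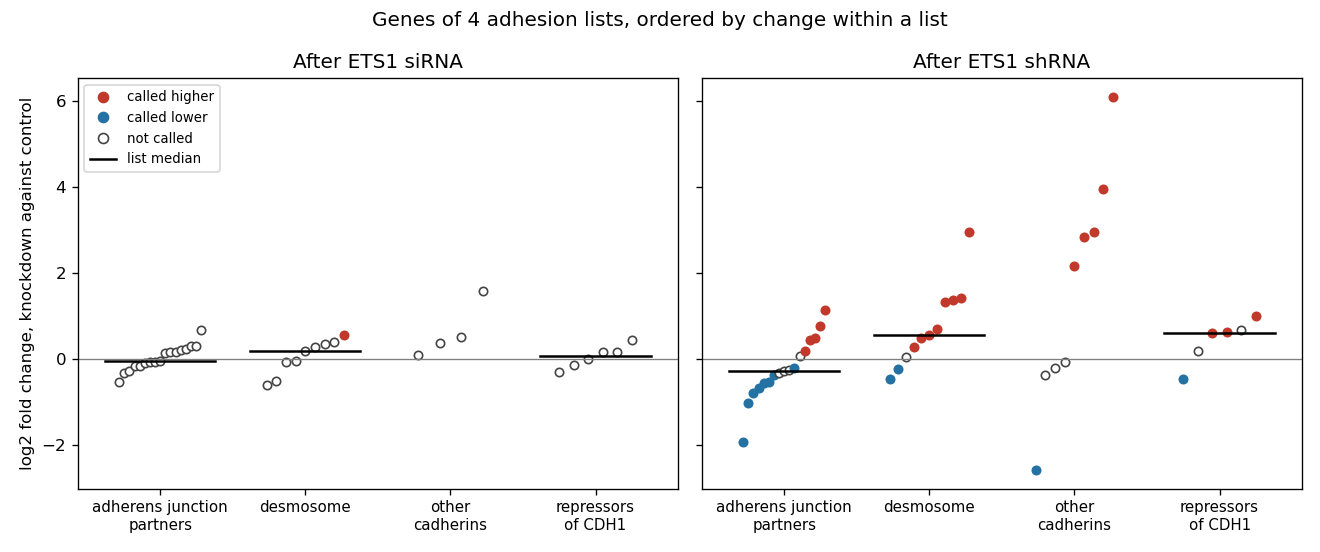
Log2 fold change of the tested genes of 4 adhesion lists after siRNA (left) and shRNA (right), ordered within each list; red and blue dots were called higher and lower, open circles were not called, and lines are list medians, not drawn for the other cadherins, where 4 of the 9 genes tested after shRNA passed the filter through one group alone. After shRNA the medians were -0.28 for the adherens junction partners, 0.55 for the desmosome genes and 0.61 for the repressors of CDH1.

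Genes with a pattern like that of the cadherins that fell at least 2-fold were sought over the 8 libraries taking genes that averaged 5 CPM or more in each table, by Pearson correlation of log2 CPM centred within each table. RAC2 (r = 0.999), AARS (r = 0.999) and DCBLD2 (r = 0.999) were most like CDH11. RAC2 fell by 2.49, AARS by 1.43 and DCBLD2 by 0.77 on the log2 scale after shRNA. DGKZ (r = 0.982), COL4A2 (r = 0.977) and C9orf114 (r = 0.972) were most like CDH4, and fell by 0.33, 0.80 and 0.38 after shRNA. The floor of 5 CPM was not set on CDH4 itself, which had 15 and 14 counts in shCON and 6 and 3 in shETS1. Since CDH4 passed the filter through shCON alone, its likeness to other genes is not read as support. The libraries share controls and scaling, a difference between shCON and shETS1 sets most of each correlation, and the correlations are given as descriptions.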

How the data were processed

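RNA-Seq of SCC25 cells was deposited by the authors as raw counts of reads per gene symbol, in 1 table for each kind of knockdown. Per the labels, the authors used TruSeq libraries and single-end reads, with TopHat2 2.1.1, Bowtie2 2.2.6 and featureCounts 1.5.0 named in the submitters' processing notes, on GRCh37. Strand use and the handling of multi-mapping reads are not given in the sources used here, so overlapping genes and close paralogues can share reads. All 8 columns of counts were used, and totals ranged from 15954616 to 25953213.

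Genes were tested with edgeR 4.0.16 (R 4.3.3), by its two-sided quasi-likelihood test, within each table on all genes, with TMM scaling, filterByExpr and group as the single factor, and p-values were adjusted by Benjamini-Hochberg and called under 0.1. DESeq2, the tool of the authors, was an alternative (1.42.0). The difference between the knockdowns was tested in a fit of all 8 libraries. Standard errors follow from each fold change and its F statistic. Levels are CPM on TMM-scaled totals within a table and are not comparable between tables. Gene positions and lengths came from a GENCODE annotation on GRCh37, which held 33514 of the 56638 symbols. The test was tested on simulated data in which a small share of genes was changed, each by 1 on the log2 scale. It recovered most of these, but the share of unchanged genes among its calls was above the nominal one, in both comparisons. Calls near the threshold, such as CTNNB1 after shRNA and PKP3 after siRNA, are therefore less certain than the threshold states. Recovery of smaller changes, or where as many genes change as after shRNA, was not tested. Common dispersions were 0.0192 for the siRNA and 0.00402 for the shRNA libraries.

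Named were the 10 genes, ETS1, up to 4 called genes of each list and comparison by adjusted p, the 3 genes most like each member that changed by at least 1 on the log2 scale after shRNA, and overlapping genes. The genes and lists were chosen with earlier results of these data known. The alternatives were other size factors, filters, thresholds and tools, abundant structural and mitochondrial RNAs left out, all libraries in one fit, a replicate block, other gene lengths for the balances, and leaving out each library in turn.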

Additional observations from a re-analysis of the deposited data

Results flagged for a closer look

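For 5 of the cadherins and catenins the shRNA effect differed from the siRNA effect in a test of the difference itself (edgeR, all 8 libraries in one fit), as it did for 34.8% of all genes tested. On the log2 scale the shRNA effect minus the siRNA effect was -3.68 for CDH11 (adjusted p = 7.41e-06), -1.22 for JUP (adjusted p = 0.000325), -0.94 for CDH3 (adjusted p = 0.00187), -0.67 for CTNNB1 (adjusted p = 0.00473) and -1.60 for CDH4 (adjusted p = 0.0227). For the targeted gene ETS1 it was 1.23 (adjusted p = 0.0017), since its fall was larger after siRNA. Over the alternatives the difference ranged from -1.33 to -1.11 for JUP, from -1.09 to -0.83 for CDH3, from -0.78 to -0.59 for CTNNB1, from -3.87 to -3.50 for CDH11 and from -2.21 to -1.14 for CDH4. The call for CDH4 was lost without shETS1 replicate 2 (adjusted p = 0.171), and CDH4 had under 20 counts in each shRNA library. No group held the 4 libraries that a test for single outlying libraries needs.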

How the results depend on the processing

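After siRNA the 1 call among the 10 genes became 2 with no filter on low counts, with DESeq2 and with all 8 libraries in one fit, JUP being the second, and 0 to 1 on leaving out each library in turn, with 0 without siRNA control replicate 1. Over all genes these calls numbered 1466, 797 and 2166 in place of 502, 190 at an adjusted p under 0.05, and 72 to 1478 on leaving out each library. After shRNA the 7 calls became 5 to 7. With every library kept, the calls over all genes ranged there from 7568 to 10923, in place of 9988. The interaction's 5 calls became 3 with at least 1 TPM required, where CDH4 and CDH11 were not tested. Over all genes 4985 of 10500 tested were called in that setting, in place of 5974 of 17190. ETS1 ranged from -4.34 to -3.95 after siRNA and from -2.99 to -2.80 after shRNA on leaving out each library. Balances after shRNA ranged on leaving out each library from 0.41 to 0.63 (CDH1 to CDH2), 0.65 to 0.74 (CDH1 to CDH3) and -1.09 to -0.79 (JUP to CTNNB1), and after siRNA from 0.15 to 0.65, -0.37 to -0.04 and -0.52 to -0.28.

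Same-numbered libraries deviated with correlations of -0.54 (siRNA) and -0.20 (shRNA), so the numbers were not taken to pair samples. With the replicate block 0 of the 10 were called after siRNA, 6 after shRNA and 5 for the interaction. Over all genes 97 were called after siRNA, 9173 after shRNA and 4264 for the interaction. With the numbers crossed, an alternative chosen after seeing the data, 3, 7 and 6 of the 10 were called. Over all genes the calls numbered 3238, 10923 and 7467.

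Sign changes were found only for values that missed the threshold in the report. With library size only, where the median of all genes after shRNA was -0.12, these were CDH4 -0.0074, CDH13 -0.010 and CTNNA1 -0.010 after siRNA, CDH1 -0.12, CDH13 -0.058 and CTNND1 -0.035 after shRNA, and CDH13 -0.048 for the interaction, and with all 8 libraries in one fit CDH1 -0.010 after shRNA. Values that crossed 0 on leaving out each library ranged after siRNA from -0.012 to 0.078 (CDH1), -0.054 to 0.078 (CDH4), -0.097 to 0.12 (CDH13), -0.098 to 0.12 (CTNNA1) and -0.31 to 0.15 (CTNND1), after shRNA from -0.053 to 0.067 (CDH1), and for the interaction from -0.12 to 0.022 (CDH1), -0.45 to 0.086 (CDH2), -0.087 to 0.13 (CDH13) and -0.095 to 0.38 (CTNND1). The cause of these changes was not tested. Counts below 20 a library limit CDH4 in the shRNA table.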
